A study of Homo sapiens with 2 samples.

Results

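ERBB2 and 3 signalling genes downstream of it, SHC1, SOS1 and MAPK3, were described probe set by probe set in HepG2, a human hepatoma cell line. The cells were grown on collagen and transfected with a locked nucleic acid (LNA), a synthetic oligonucleotide, directed at the noncoding transcript TUC338 (the knockdown) or with a control LNA, with 1 array per condition. The 4 genes were fixed by name, with earlier results of these data known. Every probe set that the array annotation gives to 1 of them alone was taken. This gave 28 probe sets for ERBB2, 12 for SHC1, 23 for SOS1 and 7 for MAPK3, or 70 of 42575 probe sets with 1 gene symbol and 4 of 2792 genes. No probe set shared by several symbols listed any of the 4.

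ERBB2 (also called HER2) is a receptor tyrosine kinase of the epidermal growth factor receptor family. It binds no known ligand of its own and signals as the partner of another family member. Once the receptor tail is phosphorylated, the adaptor SHC1 docks on it and recruits GRB2, which carries the exchange factor SOS1 to the membrane. SOS1 loads Ras with GTP, and Ras then switches on the Raf, MEK and ERK kinases, of which MAPK3 encodes ERK1. ERBB2 also feeds the PI3K-AKT route, usually through its partner ERBB3. The arrays measured RNA, and receptor or kinase activity was not measured.

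Levels are log2 intensities, obtained by converting the deposited natural logs. Each probe set of this exon array reads about 1 exon, and the probe sets of a gene are repeated looks at the same RNA on the same 2 arrays and not replicates. The SDs below are over probe sets, and no difference has a replicate check or a p-value. The knockdown array was brighter as a whole, with a median intensity over 45200 probe sets of 507 against 422. The median gene was 0.28 higher on the knockdown array (log2, 1.22-fold) and the median probe set was 0.26 higher. Gene means are therefore given relative to the median gene and single probe sets relative to the median probe set, unless they are called deposited values. No probe set was named for TUC338, so the arrays give no direct check of the knockdown label, and the design text says that the knockdown had been tested by experiment. The hepatocyte markers ALB, APOB, TF and FGG, the 4 of 14 listed that were in the table, had mean levels between 9.98 and 12.92 on both arrays. Of the markers of other cells, 2 of 5 fibroblast genes were in the table and none of 5 leukocyte or 4 endothelial genes. The table named only 2792 genes, and how they were chosen is not stated. The absence of a marker from it thus says nothing about the level of that marker.

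ERBB2 was lower after the knockdown at every one of its probe sets, relative to the median probe set. Its mean level was 8.75 after knockdown and 9.02 in the control, a deposited difference of -0.28. Relative to the median gene the difference was -0.56 ± 0.19 (log2, SD over 28 probe sets), which is 67.8% of the control level, or 1.47-fold lower. In deposited values, with the brightness of the whole array left in, it was 82.6% of control. All 28 probe sets lay below the median probe set, and 26 of 28 were lower in deposited values, against 24.8% of all probe sets.

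Across the 28 probe sets the level ran from 7.59 to 10.32 in the knockdown, with a median of 8.78, and from 7.71 to 10.66 in the control, with a median of 8.94. The brightest probe set of ERBB2, 3720457, read 10.32 in the knockdown and 10.66 in the control, or -0.60 relative to the median probe set. The next, 3720452, read 9.89 and 10.19, or -0.56. The third, 3720460, read 9.61 and 10.18, or -0.83. In deposited values these bright probe sets differed by -0.34, -0.30 and -0.57, all lower than the gene's mean of -0.28.

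The lowest value came from probe set 3720458, with 8.88 in the knockdown and 9.56 in the control, which is -0.94 or 1.92-fold lower relative to the median probe set. The highest came from 3720420, with 9.26 and 9.11, which is -0.11. This probe set and 3720462, with 7.89 and 7.83, were the 2 that were higher on the knockdown array in deposited values. At 9 of 28 probe sets ERBB2 was at least 1.5-fold lower and at none at least 1.5-fold higher. Over all 42575 probe sets 7.53% were at least 1.5-fold lower and 6.74% at least 1.5-fold higher.

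ERBB2 was lower at its bright and at its dim probe sets. The 14 brighter ones had a mean of -0.58 ± 0.22 and the 14 dimmer ones a mean of -0.50 ± 0.14, with none above the median probe set in either set. Within the gene the level and the difference had a Pearson r of -0.39 over 28 probe sets, a description only, since the level is the mean of the same 2 arrays. The spread over ERBB2 was narrow: only 6.9% of the 1804 genes with at least 10 probe sets had a smaller SD, and the median SD of those genes was 0.27. Among the 1804 genes with at least 10 probe sets, 5.82% had every probe set below the median and 7.04% every one above it. Among the 634 genes with at least 20 probe sets, 22 genes (3.47%), including ERBB2, had every probe set below the median, and another 22 had every probe set above it. Few genes with at least 20 probe sets thus had complete agreement in direction relative to the median probe set, while the size of the ERBB2 difference was moderate. ERBB2 was chosen with earlier results of these data known, so its place among all genes is a description only. Of all 2792 genes, 132 genes, ERBB2 included, had a mean as low or lower, and ERBB2 missed the 1.5-fold line that 109 genes, or 3.9%, passed on the lower side.

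**Figure D1:**
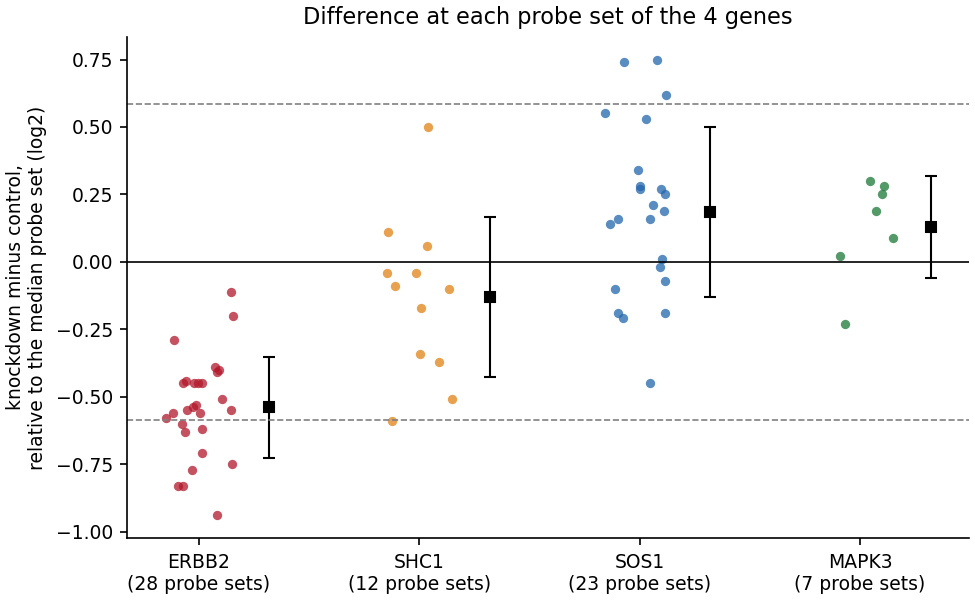
Difference between the knockdown and control arrays at each probe set (points), relative to the median probe set (log2, vertical axis), for the 4 genes. Squares and bars are the mean and SD over probe sets and dashed lines mark 1.5-fold; all 28 ERBB2 points lie below 0, between -0.94 and -0.11, while the other 3 genes have points on both sides of 0.

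SHC1, the adaptor that links phosphorylated receptors to GRB2, lay near the median gene. The mean level of SHC1 was 9.99 after knockdown and 9.86 in the control, a deposited difference of 0.13, which turned to -0.15 ± 0.30 relative to the median gene (12 probe sets). Its sign thus depended on whether the brightness of the whole array was removed. Of its probe sets 9 of 12 lay below the median probe set and 3 above it. In deposited values 4 were lower and 8 higher, where 24.8% of all probe sets were lower.

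The probe sets of SHC1 disagreed more than those of ERBB2. Probe set 2436995 was lowest, with 9.18 in the knockdown and 9.51 in the control, or -0.59 relative to the median probe set. It was the single one of 12 SHC1 probe sets at least 1.5-fold lower, near the 7.53% of all probe sets. None was at least 1.5-fold higher, where 6.74% of all probe sets were. Probe set 2436997 was highest, with 9.02 and 8.25, or 0.50. The brightest, 2437005, read 11.81 and 11.72, or -0.17, and the next brightest, 2436991, read 11.45 and 11.53, or -0.34. The third brightest, 2436990, read 11.00 and 11.24, or -0.51. All of the 6 brighter probe sets were below the median (mean -0.26 ± 0.18), whereas the 6 dimmer ones were split 3 and 3 (mean -0.01 ± 0.35). SHC1 is known to give several protein forms from different starts, and which transcript forms each probe set covers was not analysed here.

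SOS1, the guanine nucleotide exchange factor that activates Ras, was on the higher side of the median gene. The mean level of SOS1 was 8.87 after knockdown and 8.42 in the control, a deposited difference of 0.45 and a difference of 0.16 ± 0.31 relative to the median gene (23 probe sets). In deposited values 22 of 23 probe sets were higher, but only 16 of 23 lay above the median probe set. Of all probe sets only 24.8% were lower in deposited values. The excess over the median gene, 1.12-fold, was smaller than the spread over its own probe sets.

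The highest probe sets of SOS1 were 2549113, with 9.20 in the knockdown and 8.19 in the control (0.75 relative to the median probe set), and 2549132, with 8.70 and 7.69 (0.74). Together with 2549128, at 8.42 and 7.54 (0.62), these were the 3 of 23 at least 1.5-fold higher, against 6.74% of all probe sets, and none was at least 1.5-fold lower. The lowest was 2549100, with 8.14 and 8.33 (-0.45), the single one that was lower in deposited values. The brightest probe set, 2549109, read 10.64 and 10.59, or -0.21. It stood against the gene's mean, so with every gene read by its brightest probe set SOS1 lay below the median gene on that scale, at -0.14. All 3 probe sets past 1.5-fold were among the dimmer 12, whose mean was 0.26 ± 0.35, against 0.10 ± 0.25 for the brighter 11. The SD of SOS1 was wider than that of 81.4% of genes with at least 10 probe sets.

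MAPK3, which encodes the kinase ERK1 at the end of the cascade, also lay slightly above the median gene. The mean level of MAPK3 was 9.44 after knockdown and 9.05 in the control, a deposited difference of 0.39 and a difference of 0.11 ± 0.19 relative to the median gene (7 probe sets). All 7 probe sets were higher in deposited values, where only 24.8% of all probe sets were lower, and 6 of 7 lay above the median probe set. No MAPK3 probe set was 1.5-fold from the median in either direction. Over all probe sets 7.53% were at least 1.5-fold lower and 6.74% at least 1.5-fold higher.

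On the knockdown and control arrays in turn, the brightest MAPK3 probe set, 3687505, read 10.71 and 10.20, or 0.25 relative to the median probe set. The next, 3687501, read 10.48 and 10.20, or 0.02. Probe set 3687503, with 9.92 and 9.35, was the highest at 0.30. Probe set 3687499 read 9.60 and 9.06 (0.28), and 3687497 read 9.72 and 9.27 (0.19). The last pair were dim, 3687512 with 7.85 and 7.49 (0.09) and 3687500 with 7.82 and 7.78 (-0.23). The only MAPK3 probe set below the median was thus one of its 2 dimmest, and with every gene read by its brightest probe set MAPK3 stood at 0.31 relative to the median gene on that scale.

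**Figure D2:**
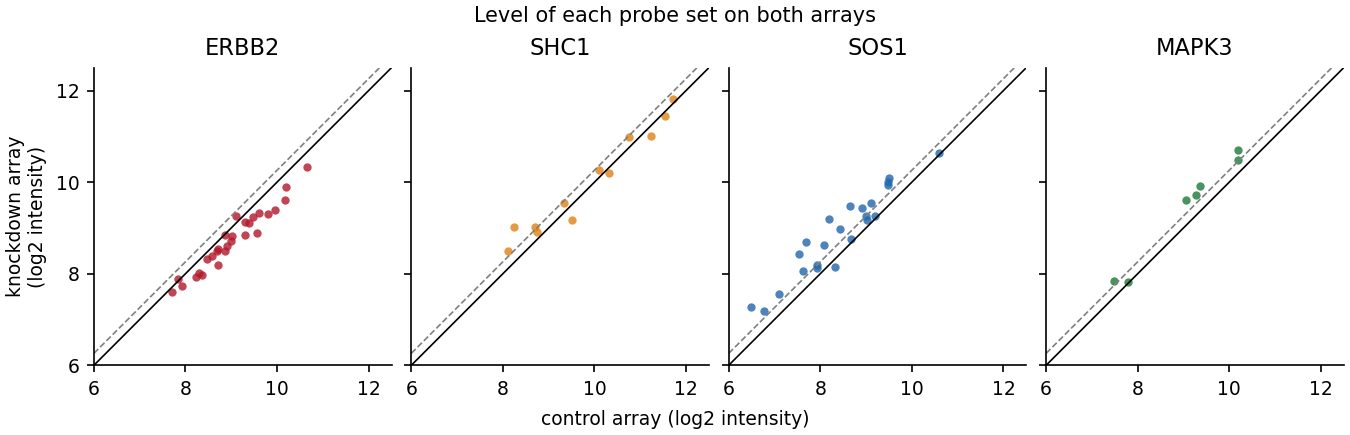
Level of each probe set on the knockdown array (vertical axis, log2 intensity) against the control array (horizontal axis, log2 intensity). The solid line marks equal levels and the dashed line the median probe set, 0.26 higher on the knockdown array; of the 28 ERBB2 points 26 lie under the solid line, and all 7 MAPK3 points lie above it.

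In order of their difference relative to the median gene, ERBB2 was lowest at -0.56, followed by SHC1 at -0.15, MAPK3 at 0.11 and SOS1 at 0.16. MAPK3 and SOS1 differed by 0.06, less than the SD over probe sets of either. The difference of SHC1 minus that of MAPK3 was -0.26 and minus that of SOS1 -0.32, and all 7 MAPK3 values fell within the range of SHC1. For ERBB2 the corresponding values were -0.41 against SHC1, -0.72 against SOS1 and -0.67 against MAPK3. Of its probe sets 2 of 28 reached the lowest MAPK3 value, and 1 of 7 MAPK3 values reached down to the highest ERBB2 value. With SOS1, 9 of 28 ERBB2 values reached the lowest SOS1 value, and 4 of 23 SOS1 values reached the highest ERBB2 value. With SHC1 the overlap was 19 of 28 and 5 of 12. These counts depend on the number of probe sets of each gene and on its most extreme one. No other gene pairs were counted, so the overlaps are not ranked. By gene means, the lower level was seen at the receptor and not at the same size in the 3 genes that carry its signal, in these 2 arrays.

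**Figure D3:**
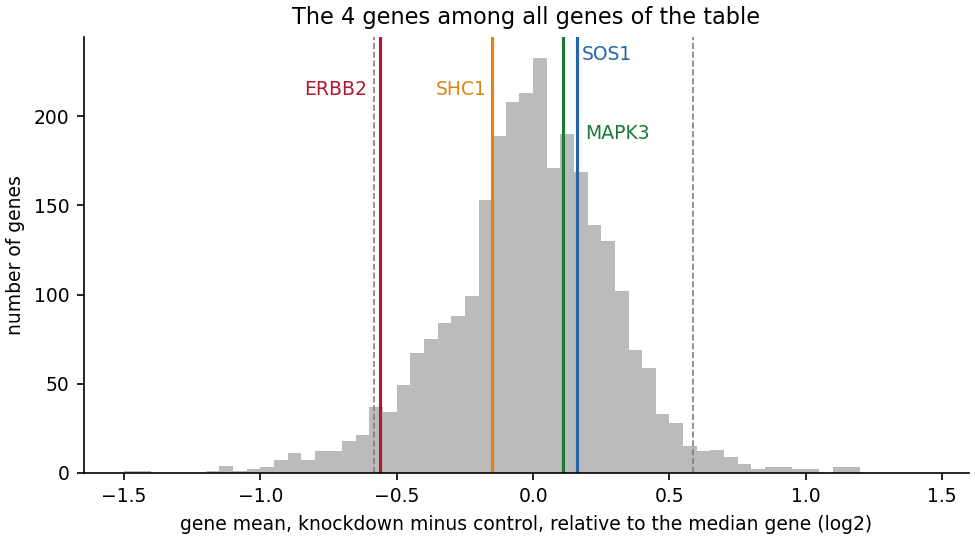
Number of genes (vertical axis) by their mean difference relative to the median gene (horizontal axis, log2) over all 2792 genes. Coloured lines mark the 4 genes and dashed lines 1.5-fold; ERBB2, at -0.56, lies just inside the lower dashed line in the left tail and the other 3 lie near the centre, from -0.15 to 0.16.

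The genes closest to ERBB2 in their difference, among 954 other genes with at least 10 probe sets and a mean level at or above the median gene's, were PLIN3, a lipid droplet coat protein (-0.56 ± 0.15, all 10 probe sets below the median), TTYH3 (-0.56 ± 0.24, all 12) and the sulfotransferase CHST15 (-0.56 ± 0.32, 19 of 21). Likeness here is the distance between 2 differences taken from 2 arrays, and 18 genes lay within 0.05 of ERBB2. The nearest to SHC1 were RRBP1, UQCRC1 and RPL4, all at -0.15. Those nearest to SOS1 were MYO1D, BBS2 and WWC2, all at 0.16, and to MAPK3 the coagulation factor F5, PCSK6 and METTL3, all at 0.11. Within 0.05 of SHC1, SOS1 and MAPK3 lay 99, 140 and 150 genes respectively.

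The other genes of receptor, Ras-MAPK and PI3K signalling were taken from lists by role, of which 42 genes beside the 4 were in the table out of 231 listed. Of these 42, 2 were at least 1.5-fold lower (PIK3R1 and AXL) and 2 at least 1.5-fold higher (RICTOR and CRK). Over all genes 3.9% were that much lower and 2.26% that much higher, so the counts were near the background. Their median was 0.02, with 18 below and 24 above the median gene, beside 0 over all genes by construction. In deposited values the split moved to 0 genes at least 1.5-fold lower and 6 higher (CRK, RICTOR, LRIG3, SHOC2, SOS2 and USP8), beside 0.967% and 13% of all genes. The only ones of the 42 below 0 in deposited values were AXL, PTK7, IQGAP1, SH2B1, RASGRF2, PIK3R1, CDC37 and PSMD3, 8 in all, where 17% of all genes were below 0. The sign of every other one of the 42 genes given below as negative thus turned without centring.

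Among ligands and receptors, the table held TGFA, a ligand of the epidermal growth factor receptor, at 0.12 ± 0.17 (10 probe sets), and ERBB2 was the only ErbB receptor in it. The genes EGFR, ERBB3 and ERBB4, its partners, were not analysed here. Of 5 other receptor tyrosine kinases, AXL, a receptor for the ligand GAS6, was the one at least 1.5-fold lower, at -0.65 ± 0.31. All 16 of its probe sets lay below the median, as in 5.82% of the genes with at least 10 probe sets. The brightest AXL probe set read 9.29 in the knockdown and 10.06 in the control. The related receptor MERTK lay at -0.19 ± 0.18 (15 of 20 below), the Wnt-pathway pseudokinases PTK7 at -0.37 ± 0.40 (16 of 18) and RYK at -0.13 ± 0.31 (7 of 11), and PDGFRB at 0.22 ± 0.38 (2 of 7). Of these 5, 4 thus lay below the median gene as ERBB2 did, where 50% of all genes do.

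The adaptors and scaffolds that work beside SHC1 lay on both sides. CRK, an SH2 and SH3 domain adaptor, was higher at all 5 probe sets (0.67 ± 0.25), with 11.10 in the knockdown and 10.09 in the control at its brightest. GRB2, the bridge between SHC1 and SOS1, was at 0.01 ± 0.31 with 6 of 13 probe sets below the median. The docking proteins GAB1 (-0.05 ± 0.30) and GAB2 (0.12 ± 0.31) were also near it. SHOC2, a scaffold that helps activate Raf, was at 0.30 ± 0.21 (12 of 13 above). On the lower side were the ERK scaffold IQGAP1, at -0.39 ± 0.23 with 34 of 36 probe sets below the median, SH2B1 (-0.40 ± 0.50), the insulin receptor adaptor GRB10 (-0.23 ± 0.24) and CNKSR1 (-0.16 ± 0.42). SHC1 was thus 1 of 6 in this list of 10 below the median gene, where 50% of all genes lie.

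Among the exchange factors, SOS2, the close relative of SOS1, was at 0.35 ± 0.30 with 23 of 25 probe sets above the median, on the same side as SOS1. The calcium-responsive RASGRF2 was at -0.29 ± 0.18, with 22 of 23 below. Of the Ras-type GTPases RRAS2 was at 0.28 ± 0.27, RAP1B at 0.08 ± 0.22 and MRAS at -0.17 ± 0.41, and the Ras GTPase-activating protein NF1 was at -0.11 ± 0.29 over 57 probe sets. Beside MAPK3, the kinase cascade was represented by ARAF (-0.09 ± 0.22) and by RPS6KA3, a kinase phosphorylated by ERK (0.12 ± 0.18). All 3 kinases lay within 0.12 of the median gene.

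Feedback and output genes were few in the table. The LRIG proteins are transmembrane regulators, of which LRIG1 is known to lower ErbB receptor levels. LRIG3 was at 0.51 ± 0.21 with all 19 probe sets above the median, LRIG1 at 0.21 ± 0.26 (16 of 20) and LRIG2 at 0.18 ± 0.30 (12 of 17). ETV4, an ETS factor induced by ERK signalling, was at 0.16 ± 0.22 with 7 of 10 above. The dual-specificity phosphatases, Sprouty genes and immediate early genes of the lists were not analysed here.

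In the PI3K-AKT arm, 2 genes stood farther from the median gene than ERBB2 did. PIK3R1, the regulatory subunit of PI3-kinase, was lower at all 16 probe sets (-0.85 ± 0.28), and all 16 were also lower in deposited values. Its brightest probe set read 9.35 in the knockdown and 10.13 in the control. RICTOR, a core subunit of the mTOR complex that phosphorylates AKT, was higher at all 38 probe sets (0.70 ± 0.30), with 11.48 and 10.46 at its brightest. The catalytic subunit PIK3CB was at 0.27 ± 0.24, RHEB at 0.20 ± 0.52, MTOR at 0.01 ± 0.24 over 62 probe sets and TSC1 at -0.16 ± 0.40. PIK3R1 and RICTOR thus lay on opposite sides, and the 6 genes had no common direction.

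Of the genes that fold, cut or degrade ERBB2 protein, CDC37, the HSP90 partner that delivers kinases to the chaperone, was lower at all 6 probe sets relative to the median (-0.43 ± 0.18), and 4 of the 6 were lower in deposited values. USP8, a deubiquitinase of endosomal receptors, was at 0.35 ± 0.22 with 17 of 18 above. The ubiquitin ligases CBL (0.12 ± 0.33) and STUB1 (-0.06 ± 0.26) and the sheddases ADAM10 (0.10 ± 0.30) and ADAM17 (0.03 ± 0.25) lay near the median gene.

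Of 18 listed neighbours of ERBB2 on chromosome 17, 3 were in the table. The proteasome subunit gene PSMD3 was at -0.39 ± 0.17 with all 13 probe sets below the median, MED1, a Mediator subunit, at 0.10 ± 0.23, and TOP2A, a DNA topoisomerase, at 0.01 ± 0.21. These 3 neighbours lay at different values, PSMD3 on the side of ERBB2, and whether the region moved together was not tested. ERBB2 lies in a gene-dense region, with 52 coding genes within 1 Mb among RefSeq genes (assembly GRCh38.p14). Gene density moved with the difference over the table, with medians from 0.05 over the 760 genes in the sparsest regions (at most 12 coding genes within 1 Mb) to -0.04 over the 690 in the densest (at least 40), and a Pearson r of -0.15 over 2758 genes. Of those 690 genes 5.22% were as low as ERBB2 or lower, ERBB2 included. In the less dense groups of genes the share was 2.76%, 4.98% and 5.25%, from the sparsest up. With the trend removed ERBB2 was at -0.51.

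**Figure D4:**
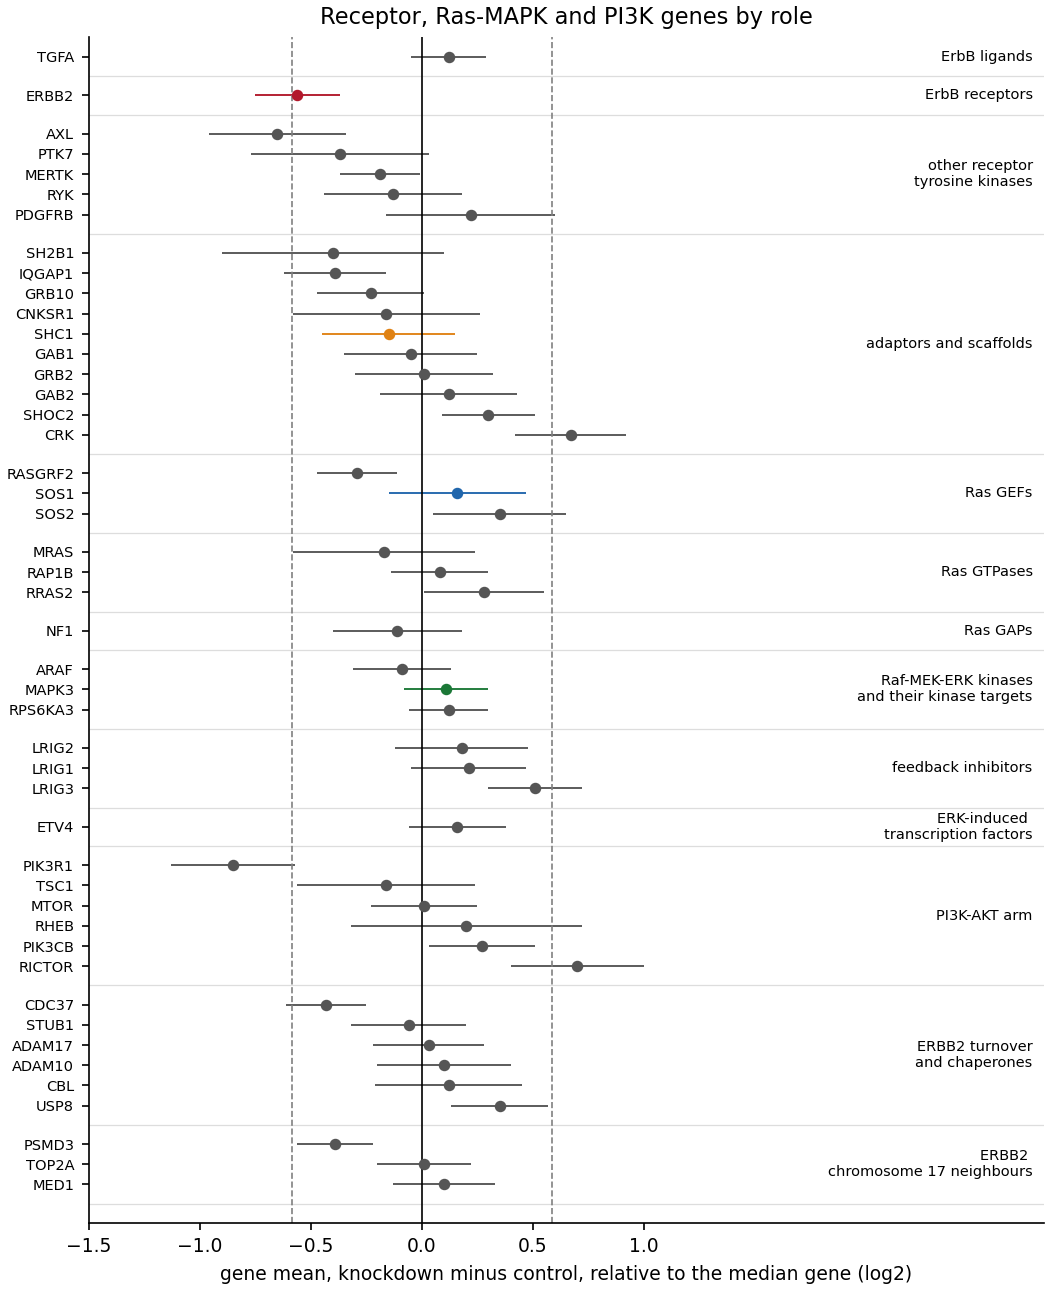
Mean difference relative to the median gene (horizontal axis, log2) for each gene of the role lists in the table, grouped by role; bars are the SD over probe sets of the same 2 arrays and dashed lines mark 1.5-fold. PIK3R1 (-0.85) and AXL (-0.65) lie past the lower line, RICTOR (0.70) and CRK (0.67) past the upper one, and ERBB2 (-0.56, red) lies just inside the lower line.

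The fibroblast gene COL1A1 moved in the same direction as ERBB2, at 7.89 after knockdown and 8.51 in the control (-0.90 ± 0.33, 14 probe sets), while PDGFRB, the other fibroblast marker in the table, was at 8.17 and 7.66 (0.22). The mean levels of COL1A1 and PDGFRB stood at percentiles 20.6 and 10.3 of all genes, against 91.4 to 99.9 for the hepatocyte markers. Both fibroblast genes were thus dim. The part of other cells in the ERBB2 result was not tested. With total RNA from 1 culture per condition, fewer cells with ERBB2 RNA and less of it per cell cannot be told apart.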

How the data were processed

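The authors deposited 1 table of natural log intensities, covering 45200 probe sets and 2 exon arrays. Per the labels' protocols, Trizol RNA was amplified, converted to cDNA and labelled with biotin. How the authors corrected, normalized and summarised the probes, and on which build, is not stated in the labels or the table. The log base was settled from the values: exponentials below an intensity of 2000 were in excess at multiples of 0.5 plus 1 residue, with 1154 of 41367 and 1167 of 42089 values in the fullest bin of width 0.001 against means of 82.7 and 84.2 per bin, and the log2 reading gave 117 and 115 against 90.4.

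Values were converted to log2. Probe sets with 1 symbol in the platform annotation (42575) were assigned to genes, with older symbols updated through RefSeq (2795 symbols, 2792 genes). Of the others, 1055 had several symbols and 1570 none. A gene's difference is the mean over its probe sets of knockdown minus control, minus the median gene's. With 1 array per group no test was possible, and counts use a 1.5-fold line. Members and lists were chosen with earlier results of these data known. Genes named are the 4 members, the listed genes in the table and, for each member, the 3 nearest genes by difference. The procedure was tested on simulated data with known folds and independent noise at each probe set. The simulation held no variation between replicate arrays, so it does not show whether the differences given here would repeat. Python 3.11.15, pandas 2.3.3 and statsmodels 0.14.6 were used.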

Additional observations from a re-analysis of the deposited data

How the results depend on the processing

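Each difference was recomputed under 8 other settings and 1 more, the removal of the gene density trend, chosen after seeing the data. ERBB2 stayed negative in all 9 (-0.58 to -0.28) and never reached 1.5-fold. MAPK3 stayed positive (0.08 to 0.39). The sign of SHC1 turned to 0.13 without centring and that of SOS1 to -0.14 with the brightest probe set. A change was judged against the SD over probe sets. Without centring ERBB2 was at -0.28 and MAPK3 at 0.39, and the probe sets below 0 numbered 4 for SHC1, 1 for SOS1 and 0 for MAPK3. The pathway genes at least 1.5-fold lower then numbered 0 and those higher 6 (CRK, LRIG3, RICTOR, SHOC2, SOS2 and USP8), where 0.967% and 13% of all genes did so. With the brightest probe set MAPK3 was at 0.31 and 4 pathway genes were higher (LRIG1 and LRIG3 beside CRK and RICTOR) and 3 lower (TSC1, at -1.41, beside AXL and PIK3R1), where 5.19% and 6.95% of all genes did so. With dim probe sets left out, those below the median were 15 of 15 for ERBB2, 3 of 10 for SOS1 and 0 of 5 for MAPK3, counts set partly by fewer probe sets. Read as log2, which shrinks every difference, the values left 1 pathway gene lower (PIK3R1) and 0 higher, where 1.11% and 0.573% of all genes did so. No paired analysis was possible because each condition has 1 array. The number of arrays limits precision, and no signal over background was given in the table.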
